A study of Homo sapiens with 12 samples.

Results

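The human mitochondrial chromosome carries 37 genes, and all 37 are listed in the table of counts per gene, where they were chosen by their chromosome name from 60670 genes. They are 13 mRNA genes, which are 7 genes of complex I, 1 of complex III, 3 of complex IV and 2 of complex V, together with 2 rRNA genes and 22 tRNA genes. The RNA came from MDA-MB-453, an established human breast cancer line with luminal and androgen-responsive features. The cultures were kept 72 h in DMEM with high glucose and 10% serum (fetal bovine), and then received for 6 h either 0.001% ethanol, the vehicle, or 10 nM dihydrotestosterone (DHT), a natural androgen. Each group had 6 libraries, each from another, consecutive passage per the labels, so the spread between libraries is that between passages of a single line. By its title, the study is about AP-2β, a transcription factor, in mammary hormone-sensing cells, and the comparison here asks whether androgen changed the RNAs of the mitochondrial chromosome.

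Mitochondrial DNA is a compact circle transcribed from promoters on both strands into long precursors. The precursor read from the heavy strand holds both rRNAs, most tRNAs and all mRNAs but MT-ND6, and that from the light strand holds MT-ND6 and the remaining tRNAs. Most mRNAs and rRNAs are flanked by tRNAs, whose excision at both ends frees them, and the mature mRNAs and rRNAs then receive short poly(A) tails (MT-ND6 mRNA is the known exception). All 13 mRNAs encode subunits of the respiratory chain and ATP synthase, the rRNAs and tRNAs serve their translation inside the organelle, and every other factor is made from nuclear genes. The genes have no introns. Genes are annotated on the plus strand where the heavy-strand precursor holds them (28 genes) and on the minus strand where the light-strand precursor does (9 genes).

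The libraries held 4346465 to 25678781 counts, the lowest in vehicle replicate 6 and the highest in DHT replicate 2, so that 1 count was worth 0.0456 to 0.214 CPM (counts per 1000000, over library totals scaled by the trimmed mean of M-values, TMM). Vehicle replicate 2, vehicle replicate 5 and DHT replicate 2 stood apart, with TMM factors of 0.796, 0.884 and 0.856 against 1.02 to 1.08 in the other 9. FKBP5, a gene known to respond to androgen, rose from 82.4 ± 15.2 to 350.1 ± 63.8 CPM (SD, n = 6 each, adjusted p = 6.8e-06). The line's markers ERBB2, FOXA1, GATA3, KRT8, KRT18, KRT19 and TFAP2B were detected, while ESR1 and PGR, the receptors of estrogen and progesterone, had 40 and 39 counts over all libraries. Of these 7 line markers, FOXA1 and GATA3 fell with DHT (adjusted p = 0.00463 and 0.0253), and GATA3 lost the call when any 1 of 6 libraries was left out (vehicle replicates 1 and 6, DHT replicates 1, 3, 4 and 6). Leukocyte markers summed to at most 0.854 CPM in any library, with CD3E at 0 counts throughout, and endothelial markers to at most 1.55 CPM. Fibroblast markers, of which 3 of 7 were tested and none passed, summed to 76.5 to 110.5 CPM with vehicle and 59.9 to 75.9 CPM with DHT, mostly COL1A1. Of 7 basal markers, 3 were tested and TP63 fell (adjusted p = 2.4e-06). The fibroblast sums did not overlap between the groups, and their part in the results was not tested.

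No mitochondrial gene passed the test. Of the 37 genes, 27 had enough counts to be tested, namely all 13 mRNAs, both rRNAs and 12 tRNAs, while the other 10, all tRNAs, had from 7 (MT-TF) to 82 (MT-TA) counts summed over all libraries. These 10 were MT-TF, MT-TV, MT-TQ, MT-TM, MT-TW, MT-TA, MT-TD, MT-TK, MT-TR and MT-TP. With edgeR's quasi-likelihood test and Benjamini-Hochberg adjustment over 16355 genes, 0 of the 27 were raised and 0 lowered at an adjusted p under 0.05, where 1.96% and 0.88% of all genes tested were. The lowest adjusted p among them was 0.229, for MT-ND6. All 27 log2 fold changes (DHT over vehicle) were nonetheless below 0, as were 58.2% of all genes, and their median was -0.65 against -0.05 over all genes. The 27 share precursors and libraries, so counts over them are not counts of independent results. At an unadjusted p under 0.05, 13 of the 27 were lower and 0 higher with edgeR, against 5.41% lower and 6.59% higher of all genes. By DESeq2, 0 were raised and 0 lowered after adjustment (all genes 3.12% and 1.73%), and 15 were lower and 0 higher at an unadjusted p under 0.05 (all genes 5.59% and 6.95%). Limma-voom gave 0 raised and 0 lowered (all genes 1.91% and 0.893%), with 1 lower and 0 higher at the unadjusted threshold (all genes 4.89% and 6.73%). In each of the 27 genes the vehicle and DHT libraries overlapped, as they did in most genes tested. Over all genes, all DHT libraries lay above all vehicle libraries in only 2.28% and below in 0.991%.

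As a share of all counts in a library, the 37 genes took 3.86, 4.89, 3.73, 5.66, 8.07 and 3.09% in vehicle replicates 1 to 6 and 3.42, 3.27, 4.00, 3.62, 3.03 and 3.14% in DHT replicates 1 to 6. Vehicle replicate 5 was thus the highest of the 12, followed by vehicle replicates 4 and 2, and the remaining vehicle libraries lay within or near the narrow band of the DHT libraries. In these shares, all 6 DHT libraries were below the vehicle median for the summed mRNAs of complexes I, IV and V, 5 of 6 were for complex III, and 4 of 6 were for the rRNAs. In bulk RNA, fewer mitochondria, fewer genomes in each and less RNA from each genome cannot be told apart.

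**Figure D1:**
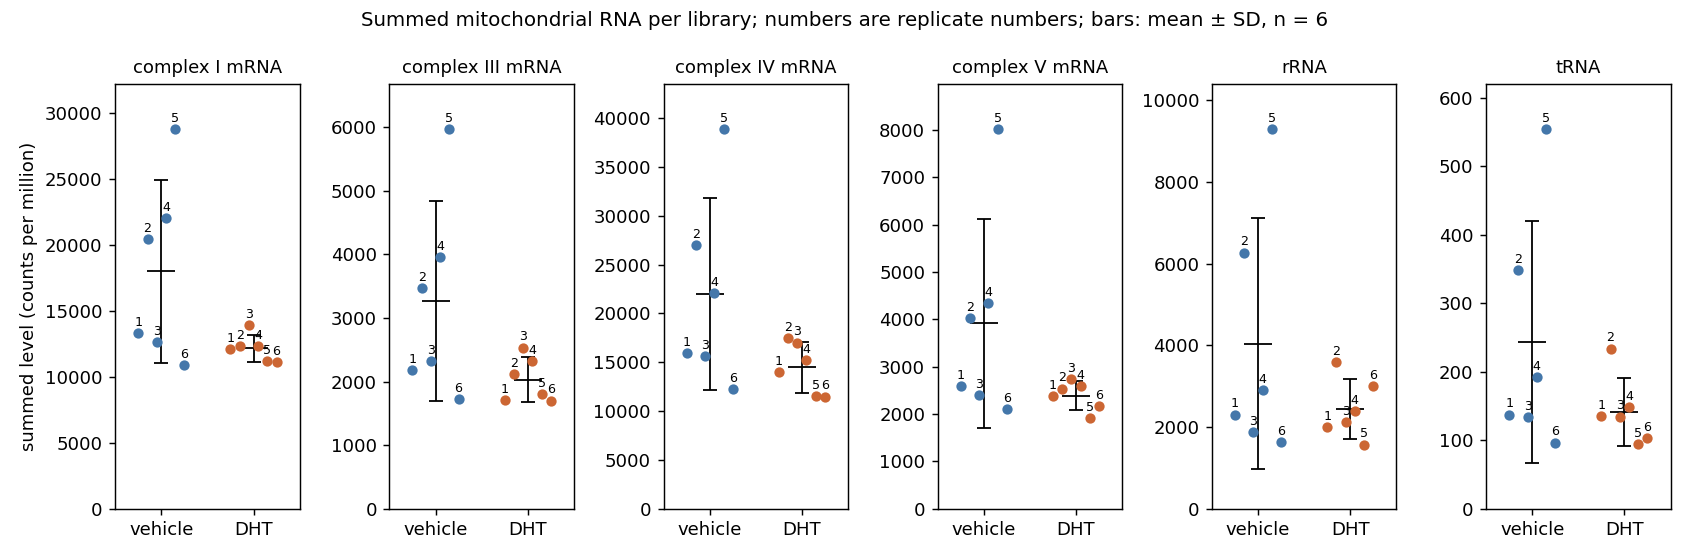
Summed level of the mitochondrial mRNAs of each complex, of the rRNAs and of the tRNAs in each library (y axis, CPM, starting at 0 with its own scale per panel). Points are libraries with their replicate numbers, and bars are the mean ± SD of 6; vehicle replicate 5 is the highest point in every panel, and the groups overlap in all 6 panels.

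Complex I, NADH dehydrogenase, passes electrons from NADH to ubiquinone and pumps protons, and its 7 mitochondrially encoded subunits form the core of the membrane arm. Their summed mRNA was 18014 ± 6931 CPM with vehicle and 12159.6 ± 1030.3 CPM with DHT (SD, n = 6 each). The difference of mean log2 sums was -0.48 with all libraries and -0.33 without vehicle replicate 5, beside an SD of the log2 sums of 0.55 among all vehicle libraries, 0.45 without replicate 5 and 0.12 among DHT libraries. The spread was therefore wider than the difference in the vehicle group and narrower in the DHT group. MT-ND4, an antiporter-like pump subunit (bases 10760 to 12137 of chromosome MT in GRCh38, as for all positions that follow) with the most counts of the 7, ran from 5412 to 14443 CPM (median 8142) with vehicle and from 5269.7 to 6340.2 CPM (median 5774) with DHT. All 6 DHT libraries were below the vehicle median, but only 1 was below the lowest vehicle library, and the log2 fold change was -0.59 (adjusted p = 0.32, SE 0.24). MT-ND5, the largest of the pump subunits (12337 to 14148), ran from 2343 to 5245 CPM (median 3239.8) with vehicle and from 2075 to 3009.9 CPM (median 2665) with DHT. It differed from the others in that vehicle replicate 4, at 5245 CPM, was the highest library and vehicle replicate 5 stood at 3857, and its log2 fold change was -0.43 (adjusted p = 0.374, SE 0.19). MT-ND2, the remaining pump subunit of this kind (4470 to 5511), ran from 1017 to 3112 CPM (median 1676) with vehicle and from 1011 to 1495 CPM (median 1169) with DHT, with a log2 fold change of -0.57 (adjusted p = 0.373, SE 0.25). The fold changes of MT-ND2 and MT-ND4 were within an SE of each other, and that of MT-ND5 was the smallest of these pump subunits.

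MT-ND1, which lies at the junction with the peripheral arm and helps form the ubiquinone channel (3307 to 4262), ran from 527 to 1725 CPM (median 936) with vehicle and from 510.4 to 737 CPM (median 644) with DHT, and its log2 fold change was -0.67 (adjusted p = 0.318, SE 0.28). MT-ND3, a small subunit with a loop beside that channel (10059 to 10404), ran from 444 to 2923 CPM (median 725) with vehicle and from 329.9 to 1049 CPM (median 661) with DHT. Its vehicle libraries spread the most of all mRNAs (coefficient of variation 82.8%), with 3 DHT libraries above the vehicle median, and its log2 fold change of -0.83 (adjusted p = 0.573, SE 0.47) was the largest of the complex with the widest SE. MT-ND4L, a small membrane subunit whose reading frame overlaps that of MT-ND4 by 7 bases on a shared transcript (10470 to 10766), ran from 451 to 912 CPM (median 749.7) with vehicle and from 512 to 595 CPM (median 557) with DHT. Its spread was the smallest of all mRNAs in both groups (24.3% and 6.32%), and so was its fold change among the mRNAs, -0.37 (adjusted p = 0.357, SE 0.16). MT-ND6, a small membrane subunit and the 1 mRNA of the minus strand (14149 to 14673), ran from 689 to 1889.8 CPM (median 978) with vehicle and from 648 to 893 CPM (median 736) with DHT. With 6 DHT libraries below the vehicle median and 2 below the lowest vehicle library, its log2 fold change was -0.65 (adjusted p = 0.229, SE 0.24). This fold change lay inside the range of the plus-strand mRNAs. Whether counting used strand is not stated in the labels, so reads of MT-ND6 and of antisense RNA opposite it cannot be told apart.

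Complex III hands electrons from ubiquinol to cytochrome c, and MT-CYB encodes cytochrome b, the subunit that holds both of its b-type hemes. The gene lies at 14747 to 15887 on the plus strand. MT-CYB ran from 1722 to 5969 CPM (median 2895) with vehicle and from 1701 to 2533 CPM (median 1956) with DHT. By library, it stood at 2174, 3473, 2317, 3956, 5969 and 1722 CPM in vehicle replicates 1 to 6 and at 1713, 2112, 2533, 2321, 1801 and 1701 CPM in DHT replicates 1 to 6. Only vehicle replicates 2, 4 and 5 were above every DHT library, and 2 DHT libraries were below the lowest vehicle library. The log2 fold change was -0.69 (adjusted p = 0.289, SE 0.27), and -0.43 (adjusted p = 0.472) without vehicle replicate 5.

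Complex IV, cytochrome c oxidase, reduces oxygen, and its mitochondrial genes encode the catalytic core. The summed mRNA of the 3 was 21953 ± 9826 CPM with vehicle and 14464 ± 2603 CPM with DHT (SD, n = 6 each), the highest of the classes. The difference of mean log2 sums was -0.51 with all libraries and -0.32 without vehicle replicate 5, with an SD of 0.61 among vehicle and 0.27 among DHT libraries. MT-CO1, whose subunit holds the oxygen-reducing heme and copper site (5904 to 7445), ran from 7173 to 16274 CPM (median 11371) with vehicle and from 6926 to 10015 CPM (median 8447) with DHT. It was the most counted mitochondrial gene in every library but had one of the smaller fold changes among the mRNAs, -0.46 (adjusted p = 0.419, SE 0.21). MT-CO2, whose copper site takes electrons from cytochrome c (7586 to 8269), ran from 2442 to 10746 CPM (median 3938) with vehicle and from 2044 to 3932 CPM (median 2992) with DHT, and its log2 fold change was -0.80 (adjusted p = 0.354, SE 0.35). MT-CO3, a core subunit without a metal site (9207 to 9990), ran from 2611 to 11857 CPM (median 4033) with vehicle and from 2268 to 3982 CPM (median 3109.7) with DHT, and its log2 fold change was -0.77 (adjusted p = 0.383, SE 0.34). In vehicle replicate 5, MT-CO2 and MT-CO3 were 3.22 and 3.88 times the median of the other vehicle libraries and MT-CO1 1.60 times. Leaving that library out brought the 3 close together, at -0.33, -0.44 and -0.35.

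Complex V is the ATP synthase. MT-ATP6 encodes the subunit that leads protons past the rotating ring, and MT-ATP8 encodes a short subunit beside it. The 2 reading frames lie on 1 transcript and overlap (both of the plus strand, GRCh38 chromosome MT, MT-ATP8 at 8366 to 8572 and MT-ATP6 at 8527 to 9207), and the overlap is shown because reads inside it belong to both genes. The last 70 bases of MT-ATP8 and the first 70 of MT-ATP6, from the GENCODE release 29 transcripts, have the 46 shared bases in capitals.
MT-ATP8: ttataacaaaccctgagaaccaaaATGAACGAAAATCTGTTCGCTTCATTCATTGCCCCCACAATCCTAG
MT-ATP6: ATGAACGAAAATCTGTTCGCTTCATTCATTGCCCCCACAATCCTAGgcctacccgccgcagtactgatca
A 40 bp read fits wholly inside those 46 bases. MT-ATP8 ran from 191 to 573 CPM (median 327) with vehicle and from 169.6 to 271 CPM (median 244) with DHT, with a log2 fold change of -0.64 (adjusted p = 0.257, SE 0.24). MT-ATP6 ran from 1915 to 7440.0 CPM (median 2977) with vehicle and from 1736 to 2468 CPM (median 2216) with DHT, with a log2 fold change of -0.72 (adjusted p = 0.318, SE 0.30). Although they share a transcript, vehicle replicate 5 stood at 3.26 times the median of the other vehicle libraries for MT-ATP6 and at 1.85 times for MT-ATP8. The summed mRNA of the complex was 3911 ± 2206 CPM with vehicle and 2382 ± 306 CPM with DHT (SD, n = 6 each), and the difference of mean log2 sums was -0.56 with all libraries and -0.32 without vehicle replicate 5.

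The 2 rRNAs are the RNA cores of the mitochondrial ribosome, MT-RNR1 (648 to 1601) of its small and MT-RNR2 (1671 to 3229) of its large subunit. Their summed level was 4045 ± 3080.4 CPM with vehicle and 2447 ± 735 CPM with DHT (SD, n = 6 each). The difference of mean log2 sums was -0.46 with all libraries and -0.16 without vehicle replicate 5, against an SD of 1.01 among vehicle and 0.43 among DHT libraries, so the rRNA difference was smaller than the spread in the vehicle group with or without that library. MT-RNR2 stood at 1668, 5239, 1361, 2089, 7777 and 1096 CPM in vehicle replicates 1 to 6 and at 1420.4, 2870.0, 1548, 1849, 1065 and 1963 CPM in DHT replicates 1 to 6. Its highest libraries were vehicle replicates 5 and 2, followed by DHT replicate 2, and the log2 fold change was -0.84 (adjusted p = 0.531, SE 0.45). MT-RNR1 stood at 638, 1032, 509, 817, 1518 and 526 CPM with vehicle and at 585, 726, 564, 549, 507 and 1039 CPM with DHT, where replicate 6 was the highest of its group. The MT-RNR1 log2 fold change, -0.34 (adjusted p = 0.766, SE 0.27), was the smallest of the 27. The count ratio of MT-RNR2 to MT-RNR1 was 5.08, 5.12 and 3.95 in vehicle replicate 2, vehicle replicate 5 and DHT replicate 2 and 1.89 to 3.37 in the other 9 libraries. After vehicle replicate 5, vehicle replicate 2 and DHT replicate 2 were left out, a choice made after seeing the data, the log2 fold changes were 0.06 for MT-RNR1 and 0.01 for MT-RNR2.

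Without vehicle replicate 5, 0 of the 27 genes were raised and 0 lowered (2.16% and 1.21% of all genes tested were), and the lowest adjusted p was 0.369. The fold changes of 26 genes were still below 0 (all genes 55.2%), but their median was -0.36. At an unadjusted p under 0.05, only MT-ND6 was lower with edgeR and none was higher, where 13 had been lower with all libraries (all genes 5.8% lower and 7.14% higher without it). Vehicle replicate 5 was the highest vehicle library for 25 of the 27 genes, at 1.20 to 5.38 times the median of the other vehicle libraries (median 2.67). The exceptions were MT-ND4L, highest in vehicle replicate 2, and MT-ND5, highest in vehicle replicate 4, whose fold changes moved least, to -0.33 and -0.40. MT-ND3 and MT-RNR2 moved from -0.83 and -0.84 to -0.32 and -0.36. By the leave-one-out fits, leaving out any other single library kept all 27 fold changes below 0 and called none.

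**Figure D2:**
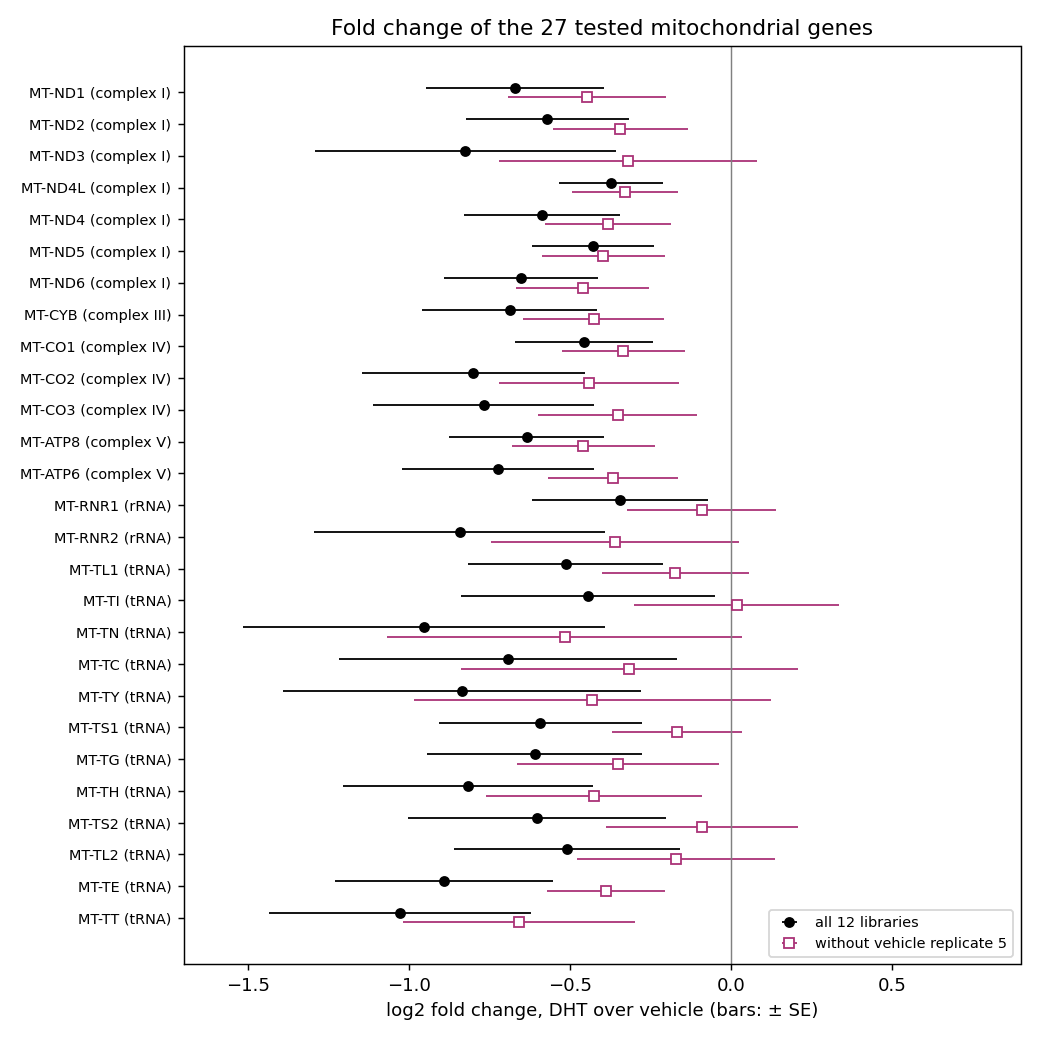
Log2 fold change (x axis, DHT over vehicle, with its SE) of the 27 tested genes grouped by class and chromosome order, with all 12 libraries (filled circles) and without vehicle replicate 5 (open squares). All circles lie left of 0, and the squares lie closer to 0 than the circles, with MT-TI just right of 0.

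The makeup of the mitochondrial RNA varied between libraries of both groups. MT-CO1 made up 19.9% of the mitochondrial mRNA counts in vehicle replicate 5 and 24.0% to 29.97% in the other 11 libraries. MT-ND3 made up 3.58%, 3.17% and 3.05% in vehicle replicates 5 and 2 and DHT replicate 2, against 1.25% to 2.76% elsewhere. MT-ND5 had its lowest shares in the same 3 libraries, at 4.72%, 5.94% and 6.02%, against 7.49% to 10.1%. The count ratio of MT-ND3, a short gene of 346 bases, to MT-ND5, the longest at 1812 bases, was therefore 0.758, 0.534 and 0.506 in these libraries and 0.123 to 0.369 in the others. The rRNA counts relative to the mRNA counts were 11.4%, 11.4% and 10.4% there, 11.3% in DHT replicate 6, and 5.54% to 7.39% in the remaining 8. DHT replicate 6 differed from the 3 in that MT-RNR1, not only MT-RNR2, was high, at 3.93% relative to the mRNA counts against 1.54% to 2.11% in the other 11. Vehicle replicates 2 and 5 and DHT replicate 2 are also the 3 libraries with TMM factors below 1, and the part of this in the fold changes was not tested.

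**Figure D3:**
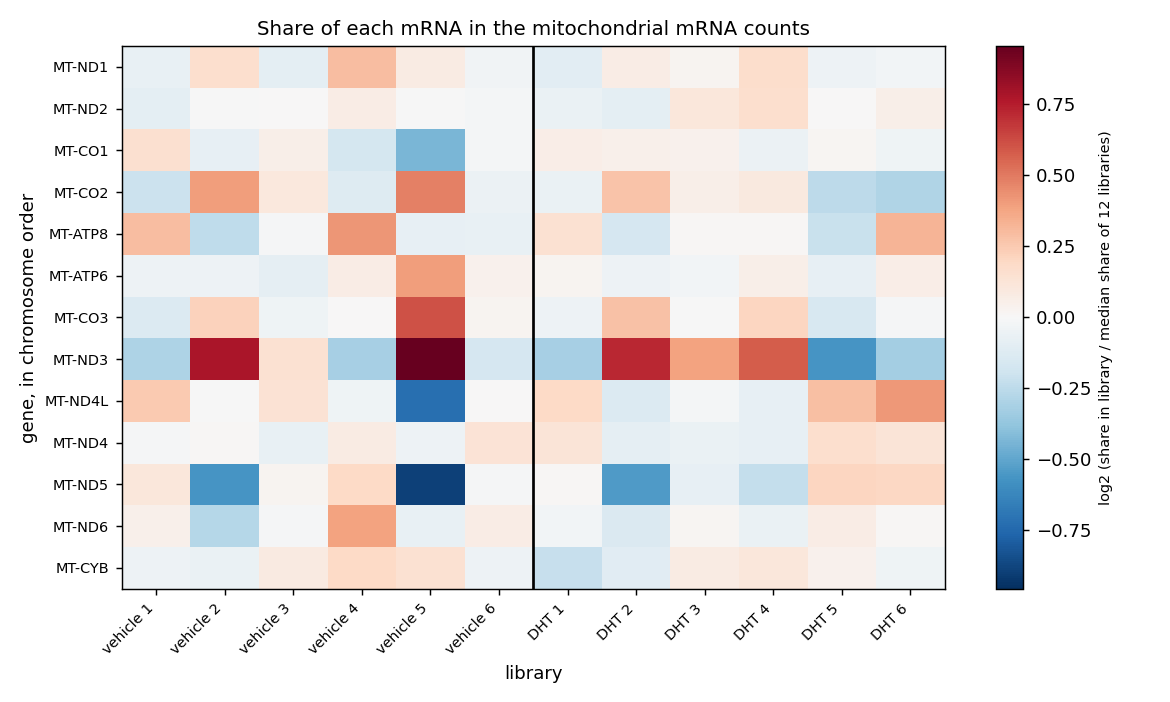
Share of each of the 13 mRNAs in a library's mitochondrial mRNA counts, as log2 of its ratio to the median share of the 12 libraries (colour), for each gene in chromosome order (y axis) and library (x axis; the line parts the groups). MT-ND3 is most above and MT-ND5 most below its median in vehicle replicates 2 and 5 and DHT replicate 2, and MT-CO1 is lowest in vehicle replicate 5.

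Of the 22 tRNAs, which carry amino acids to the mitochondrial ribosome, 12 were tested, and their summed level over all 22 was 244 ± 176 CPM with vehicle and 141 ± 49.9 CPM with DHT (SD, n = 6 each). The minus-strand tRNAs for asparagine (MT-TN), cysteine (MT-TC), tyrosine (MT-TY), serine (MT-TS1) and glutamate (MT-TE) had 4177 to 8752 counts each over all libraries, and no plus-strand tRNA had more than 1435 (MT-TG, glycine). The genes of these 5 are shown because they hold most tRNA counts and because MT-TN, MT-TC and MT-TY are neighbours, all 5 on the minus strand of chromosome MT in GRCh38 (5657 to 5729, 5761 to 5826, 5826 to 5891, 7446 to 7514 and 14674 to 14742), from GENCODE release 29, with the anticodon in capitals. The bases of the mature tRNA that are added or modified after transcription are not in the gene.
MT-TN: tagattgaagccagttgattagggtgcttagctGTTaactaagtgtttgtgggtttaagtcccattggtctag
MT-TC: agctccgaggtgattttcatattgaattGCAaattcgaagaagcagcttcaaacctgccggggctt
MT-TY: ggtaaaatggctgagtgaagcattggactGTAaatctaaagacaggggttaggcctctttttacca
MT-TS1: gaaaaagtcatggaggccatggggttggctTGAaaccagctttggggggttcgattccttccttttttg
MT-TE: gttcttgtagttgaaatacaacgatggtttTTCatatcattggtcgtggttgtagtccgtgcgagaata
A gene of 66 to 73 bases is little longer than a 40 bp read, so these counts can come from precursors, antisense RNA or mature tRNA, which cannot be told apart. MT-TN stood at 28.8, 123, 28.7, 48.9, 152 and 12.6 CPM in vehicle replicates 1 to 6 and at 25.6, 78.5, 29.6, 39.1, 13.8 and 16.6 CPM in DHT replicates 1 to 6. Its 3 highest libraries were vehicle replicates 5 and 2 and DHT replicate 2, and its log2 fold change was -0.95 (adjusted p = 0.605, SE 0.56). MT-TE, the neighbour of MT-ND6, ran from 20.5 to 101 CPM (median 29.7) with vehicle and from 17.2 to 25.1 CPM (median 23.0) with DHT, and its log2 fold change was -0.89 (adjusted p = 0.257, SE 0.34). MT-TT (threonine) had the largest fold change of the 27, -1.03 (adjusted p = 0.289, SE 0.41), on only 187 counts over all libraries and with 1 count in vehicle replicate 6. MT-TY, MT-TC and MT-TS1 had log2 fold changes of -0.84, -0.69 and -0.59. The other plus-strand tRNAs, MT-TI (isoleucine), MT-TL2 and MT-TL1 (leucine), MT-TS2 (serine), MT-TG and MT-TH (histidine), ran from -0.44 for MT-TI to -0.82 for MT-TH, and 0.02 to -0.42 without vehicle replicate 5.

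The tested minus-strand and plus-strand tRNAs moved in opposite directions in both replicate 2 libraries. Some had few counts in vehicle replicate 2, such as 4.66 for MT-TI and 12 for MT-TT. Of the untested minus-strand tRNAs, MT-TQ and MT-TP were below their vehicle medians there (0.222 and 0.148 against 0.289 and 0.254 CPM). MT-TA was above its own (0.667 against 0.615 CPM). Of the untested plus-strand tRNAs, MT-TD, MT-TW and MT-TK were above theirs (0.222, 0.148 and 0.148 against 0.166, 0.131 and 0.111 CPM), on 3, 2 and 2.5 counts. MT-TV, MT-TM and MT-TR were below theirs, and MT-TF was at its median of 0. In vehicle replicate 2, the 5 minus-strand tRNAs were 1.32 to 4.96 times the median of the other vehicle libraries, and the 7 plus-strand tRNAs (MT-TL1, MT-TI, MT-TG, MT-TH, MT-TS2, MT-TL2 and MT-TT) were 0.342 to 0.741 times. In DHT replicate 2, they were 1.15 to 3.84 and 0.477 to 0.821 times the median of the other DHT libraries. Vehicle replicate 5 had both sets high, at 3.44 to 5.38 and 2.10 to 3.41 times. The count ratio of MT-TN to MT-TG was 29.02 in vehicle replicate 2 and 17.8 in DHT replicate 2, and 1.28 to 7.74 in the other 10 libraries. These ranges describe libraries of both groups and carry no test.

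**Figure D4:**
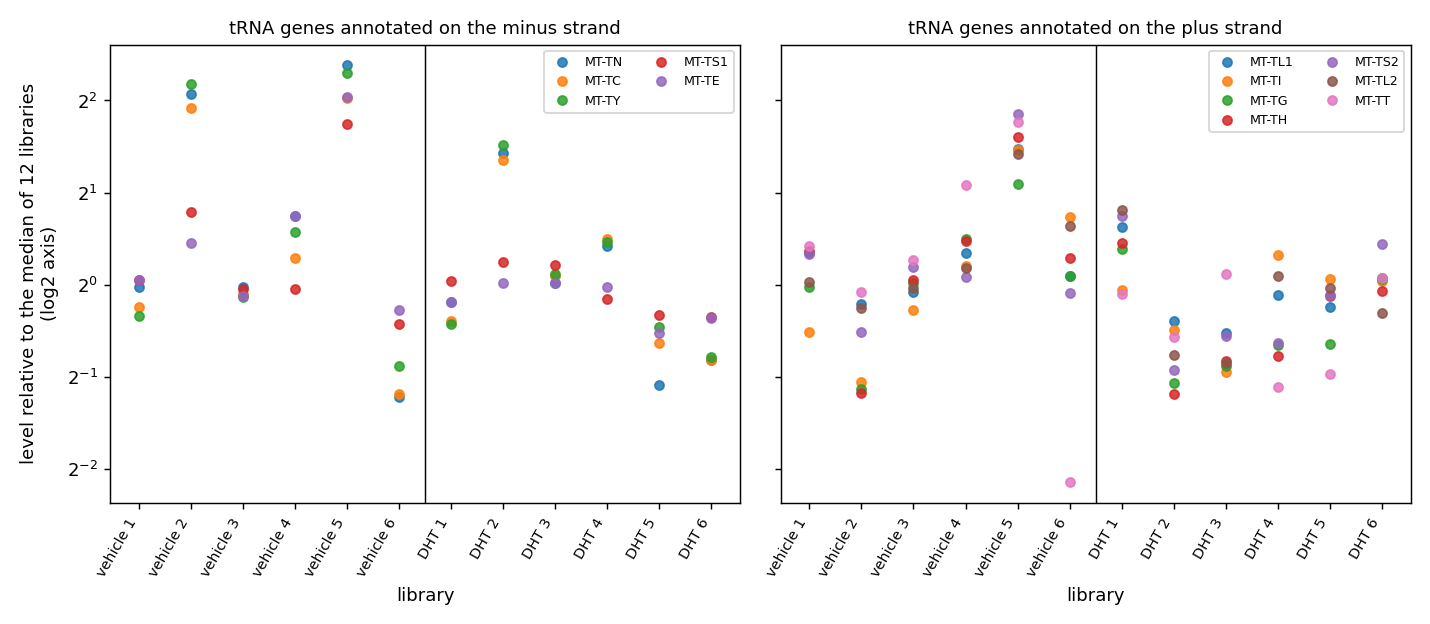
Level of the 12 tested tRNAs in each library relative to the gene's own median of 12 libraries (y axis, log2 axis), for the 5 minus-strand genes (left) and the 7 plus-strand genes (right), with the line parting vehicle from DHT. In both replicate 2 libraries the left points are above 1 and the right points below it, and in vehicle replicate 5 all are high.

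Per length, in CPM per 1000 bases of gene, the order of levels with vehicle was led by MT-CO1 at 7507 ± 2171, MT-CO2 at 7476 ± 4656 and MT-CO3 at 6715 ± 4472 (SD, n = 6). MT-ND4 at 6290.1 ± 2577 and MT-ATP6 at 5209 ± 3043 followed. Each SD is between libraries, which the genes share, so it does not measure differences between genes. Per length, MT-CO1 was above MT-CO2 in every library but vehicle replicates 2 and 5. MT-CO1 was above MT-CO3 in every library but vehicle replicate 5. A middle group held MT-ND3, MT-CYB, MT-ND4L, MT-ND6, MT-RNR2, MT-ND5, MT-ATP8 and MT-ND2, from 3404 ± 2820.1 down to 1728 ± 760.2. MT-ND1 at 1051 ± 503 and MT-RNR1 at 881 ± 405 were the lowest of the 15. The DHT libraries gave 5471 ± 802 for MT-CO1, 4292 ± 1136 for MT-CO2, 4186 ± 293 for MT-ND4 and 3943 ± 859 for MT-CO3. MT-ND4 and MT-CO3 thus changed places, which rested on vehicle replicate 5. Without it, the vehicle means were 7513 CPM for MT-ND4 (1378 bases) and 3946 CPM for MT-CO3 (784 bases). MT-ND4 was then above MT-CO3 per length with vehicle too. The neighbours MT-ATP8 and MT-ATP6, which share a transcript, differed in level per length, at 1758 ± 739 and 5209 ± 3043, as did MT-ND4L at 2421 ± 589 and MT-ND4. The rRNAs were below most mRNAs on this scale, and the labels differ on whether poly(A) or total RNA was sequenced, with the design text naming the first and the library protocol the second. Counts placed on nuclear copies, described below, are not in these levels, and their part differed between genes. Of the counts of gene plus copies, MT-CO1 itself took 68.3%, MT-ATP6 68.9% and MT-ND4 93.6%.

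The nuclear genome holds many copies of mitochondrial genes, fragments of mitochondrial DNA inserted into chromosomes, and a 40 bp read that matches both cannot be placed with certainty. By symbol, 417 such copies were listed, 167 had counts, and 35 were tested. Copies took 0.713% to 1.79% of all counts with vehicle and 0.689% to 0.940% with DHT. None of the 35 passed (edgeR, adjusted p under 0.05), and 33 had a log2 fold change below 0 (all genes 58.2%). At an unadjusted p under 0.05, 23 were lower and 0 higher (all genes 5.41% lower and 6.59% higher). Without vehicle replicate 5, 9 of the 35 were lower at that threshold (all genes 5.8%). Their median log2 fold change moved from -0.67 to -0.37. The 5 copies with the highest mean level, MTCO1P12, MTATP6P1, MTCO2P12, MTCO3P12 and MTND2P28, held 77.8% of the copy counts and lie in 1 stretch of chromosome 1 (GRCh38, 629640 to 634922). They match their parent genes at 98.2% to 98.7% of aligned bases. A stretch of 60 bases of MT-CO1 (plus strand, chromosome MT, 6212 to 6271) and the same stretch of MTCO1P12 (chromosome 1, 631382 to 631441), from the GENCODE release 29 transcripts, shows how few bases part them, with those that differ in capitals. The stretch was chosen as one with the most differences at this length, and both are reference sequences, which the line's own may differ from.
MT-CO1: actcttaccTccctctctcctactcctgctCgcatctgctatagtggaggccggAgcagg
MTCO1P12: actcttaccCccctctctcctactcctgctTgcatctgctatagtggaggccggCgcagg
Of the 40-base windows of MT-CO1, 863 of 1503 (57.4%) occur unchanged in a copy. MT-CO1 itself took 68.3% of the counts of gene plus copies (66.5% to 68.8% by library), MT-ATP6 68.9%, MT-ND2 76.8%, MT-CO2 78.4%, MT-ND1 79.5%, MT-CO3 83.1% and MT-ND6 86.1%. Genes with few shared windows kept nearly all, such as MT-CYB with 98.8% and MT-ND3 with 99.3%. MT-RNR2, whose 13 listed copies are the MTRNR2L genes, took 90.6%. The log2 fold changes of the 5 leading copies were -0.47, -0.67, -0.79, -0.72 and -0.46, beside -0.46, -0.72, -0.80, -0.77 and -0.57 for their parents. Adding the counts of all copies to each parent, an alternative added after seeing the data, left 0 genes raised or lowered and moved the log2 fold change of MT-CO1 to -0.47 and that of MT-ND1 to -0.70.

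**Figure D5:**
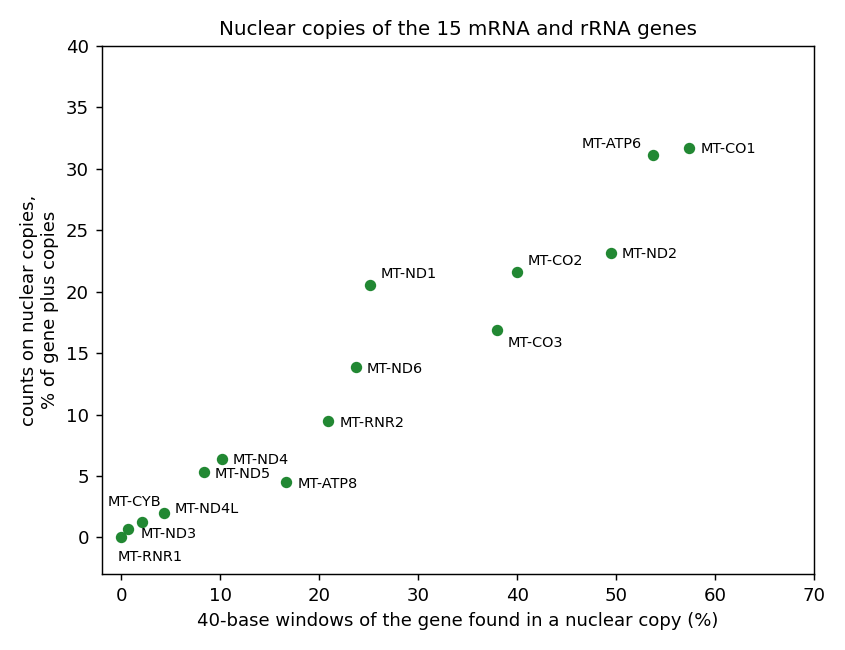
For each of the 15 mRNA and rRNA genes, the percent of its 40-base windows that occur in a nuclear copy (x axis) and the percent of gene-plus-copy counts assigned to copies (y axis). The 15 points rise together from MT-RNR1, with no copy by symbol, to MT-ATP6 and MT-CO1; they are genes of the same 12 libraries and carry no test.

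Nuclear genes that make, process and use these RNAs were followed as lists. Of 21 genes for transcription and replication of mitochondrial DNA, 2 were raised and 0 lowered (all genes 1.96% raised and 0.88% lowered, as for the lists that follow). TWNK, the replicative helicase of mitochondrial DNA, ran from 16.3 to 22.1 CPM (median 19.1) with vehicle and from 28.2 to 38.4 CPM (median 35.2) with DHT. The groups did not overlap, and the log2 fold change was 0.86 (adjusted p = 6.4e-04, SE 0.11). ATAD3B, a membrane protein tied to mitochondrial nucleoids, also had every DHT library above every vehicle library, with a log2 fold change of 0.46 (adjusted p = 0.0316, SE 0.11). Of 11 nuclear regulators of mitochondrial biogenesis, 1 was raised, PPARGC1B, a coactivator of genes for mitochondrial function, at 1.13 (adjusted p = 0.0378, SE 0.27), and 0 were lowered. Its groups overlapped, from 6.01 to 16.1 CPM with vehicle and from 10.3 to 26.4 CPM with DHT. Of 23 tested genes for tRNA and rRNA modification, 1 was raised, PUS1, a pseudouridine synthase, at 0.70 (adjusted p = 0.0309, SE 0.16). The medians of the log2 fold changes were 0.03 for transcription and replication, -0.04 for regulators and 0.13 for modification, beside -0.05 over all genes. Leaving out 1 library at a time, TWNK passed in all 12 fits, whereas ATAD3B lost the call in 9, PPARGC1B in 10 and PUS1 in 7. ATAD3B kept it only where vehicle replicate 2 or 5 or DHT replicate 2 was left out, PPARGC1B only without vehicle replicate 1 or DHT replicate 2, and PUS1 only without vehicle replicate 1, 2, 5 or 6 or DHT replicate 2. The adjusted p of these 3 reached 0.101, 0.13 and 0.0879, in that order, over all alternatives.

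None of 26 genes for RNA processing and stability passed with edgeR (median log2 fold change 0.16, 21 above 0), and the smallest p belonged to SUPV3L1, the helicase of the RNA degradosome, at 0.29 (adjusted p = 0.158, SE 0.09). Its groups did not overlap (DHT above), and DESeq2 called it raised (adjusted p = 0.0289). None of 12 tested translation factors passed, with GFM1, an elongation factor, at 0.23 (adjusted p = 0.271, SE 0.09). Of the nuclear-encoded subunits of the respiratory chain, 0 of 37 for complex I, 0 of 9 for complex III, 0 of 11 for complex IV and 0 of 18 for complex V passed. Log2 fold changes below 0 were found in 35, 7, 11 and 16 of them (all genes 58.2%), with medians of -0.18, -0.11, -0.24 and -0.20. For complexes III, IV and V, the members with the smallest p were UQCRB of complex III at -0.32 (adjusted p = 0.748, SE 0.24), COX6C of complex IV at -0.34 (adjusted p = 0.751, SE 0.26) and ATP5IF1, the inhibitor of ATP synthase, at -0.36 (adjusted p = 0.406, SE 0.17). UQCRB and COX6C crossed 0 without vehicle replicate 5, to 0.02 and 0.05. The sum of the complex I subunits was 4639, 5459 and 4576 CPM in vehicle replicates 2 and 5 and DHT replicate 2, and 2587 to 3133 CPM in the other 9. The libraries with high MT-RNR2, MT-ND3 and minus-strand tRNA counts thus also had high nuclear subunit sums. Of 23 listed nuclear RNAs without a poly(A) tail, 8 had 0 counts in all libraries (RN7SK, RN7SL2, RMRP, RPPH1, RNU11, RNU12, SCARNA2 and VTRNA1-1). Another 10 were tested, and 0 passed. The list was highest in vehicle replicate 5 (1006 CPM against 439 to 821), with the histone gene H2AC6 at -0.47 (adjusted p = 0.403, SE 0.21). None of 10 genes of the matrix stress response passed, with the chaperone HSPA9 at 0.24 (adjusted p = 0.281, SE 0.09). All DHT libraries were above all vehicle libraries for HSPA9, and DESeq2 called it raised (adjusted p = 4.5e-04; all genes 3.12% with DESeq2). The part of these library differences in the mitochondrial fold changes was not tested.

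The authors' deposited table lists 24 of the 37 genes, all 13 mRNAs, both rRNAs and 9 tRNAs. In the authors' deposited table, 21 had a log2 fold change below 0 and 3 above, and 0 had a false discovery rate under 0.05. The 3 above were close to 0, with MT-CO1 at 1.1e-06, MT-ND4L at 0.015 and MT-ND4 at 0.036, per the authors' deposited table. Its lowest false discovery rate among these genes was 0.474, for MT-ND1 at -0.40, per the authors' deposited table. For MT-CO2, MT-CYB and MT-ND6, the authors' deposited table gives -0.09, -0.21 and -0.20, where the fit used here gave -0.80, -0.69 and -0.65 with all libraries and -0.44, -0.43 and -0.46 without vehicle replicate 5. How the authors fitted their values was not stated in the labels or headers.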

How the data were processed

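RNA was measured in 12 libraries of MDA-MB-453 cells, from 1 µg of RNA as single 40 bp reads per the labels' protocols. The authors deposited estimated counts per gene; per the submitters' processing notes the tools were STAR and featureCounts and the build GRCh38. Versions, options and any use of strand are not stated there or in the labels. In each library 39.6% to 46.7% of values above 0 were fractional (tolerance 0.005), so the test planned for raw counts was run on rounded values. A record broken over 3 lines was left out. Symbols came from a symbol table (60400 genes) and, where it had none, GENCODE release 29 (236 genes); all 37 mitochondrial genes have the same coordinates there.

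A second table deposited by the authors gives, per the file headers, log2 fold changes, log2 CPM, p-values and false discovery rates of DHT against vehicle, printed only where named. Its percent GC column, per the file headers, was not used.

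The test was edgeR 4.0.16 in R 4.3.3 (filterByExpr, TMM scaling, quasi-likelihood F-test, group alone in the model), with Benjamini-Hochberg adjustment over 16355 genes and a threshold of 0.05. Each SE is the absolute log2 fold change divided by root F. Sums over a class and ratios of genes are described without a test. Alternatives used DESeq2 1.42.0, limma-voom (limma 3.58.1), other scalings and filters, the replicate number as a block, and libraries left out. Scripts were tested on simulated data. There, edgeR at the same threshold recovered 7 of 50 genes changed 1.5-fold and 34 of 50 changed 2-fold. The absence of a call therefore does not show the absence of a change of such size. Copies were compared with their parents by exact 40-base windows and pairwise alignment (Biopython 1.88).

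The mitochondrial genes and the other lists were chosen with earlier results of these data known. Named were all mRNAs and rRNAs, tested tRNAs, the 5 copies of highest mean level and, per list, up to 2 raised and 2 lowered genes or, where none passed, that with the smallest p; some items are not reported here. Lists hold genes from general knowledge. Depth differed between libraries, so low tRNA counts are less precise in the shallow ones.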

Additional observations from a re-analysis of the deposited data

Results flagged for a closer look

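For 5 genes, vehicle replicate 5 lay further above the other vehicle libraries than the critical value of Dixon's test for 6 samples (0.625) allows. MT-ATP6 stood at 7440.0 CPM with the next library at 3824 CPM. MT-TE stood at 101 CPM (next 41.5), MT-TS2 at 20.6 CPM (next 7.19), MT-TH at 13.2 CPM (next 6.05) and MT-TL1 at 4.97 CPM (next 2.29). For MT-TY, DHT replicate 2 stood apart in the same way, at 44.8 CPM with the next DHT library at 21.6 CPM. These are 6 of 66 sets of 6 libraries examined, where chance marks about 1 in 20, and the genes share their libraries.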

How the results depend on the processing

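Across 29 alternatives, 0 of the tested mitochondrial genes were raised in any, and genes were lowered in 1, which left out vehicle replicate 5 and took the replicate number as a block. There, 2 were lowered (MT-CYB, -0.34, adjusted p = 0.0338, and MT-CO2, -0.29, adjusted p = 0.0495, edgeR), where 9.55% of all genes were. The replicate block with all libraries called 0 raised and 0 lowered, with a lowest adjusted p of 0.107, and moved the counts over all genes from 320 raised and 144 lowered to 764 and 522. Same-numbered libraries deviated together over all genes in 5 of 6 numbers (correlations 0.57, 0.89, 0.50, 0.28, -0.28 and 0.56 for numbers 1 to 6), and 3 of 6 vehicle libraries matched their own number best. The labels do not say that a number marks the same passage in both groups, and the correlation of number 5 was negative, so the numbers were not taken as pairs. The block with all libraries called the nuclear gene H2AC6 lowered (-0.44, adjusted p = 0.0244, edgeR). Of the named nuclear genes that did not pass, SUPV3L1, H2AC6 and HSPA9 passed in 3 of 29 alternatives each and ATP5IF1 in 2, each of them also with vehicle replicate 5 left out and the block. Leaving out 1 library at a time gave 0 raised and 0 lowered in all 12 fits, with median log2 fold changes of -0.77 to -0.36. The summed levels of complexes I, III, IV and V and rRNA moved by less than 1 SD between libraries in each alternative. For the complexes that margin was only somewhat narrower than the difference, so it does not show that the differences kept their size. Without vehicle replicate 5, those of complexes I, III, IV and V went from -0.48, -0.57, -0.51 and -0.56 to -0.33, -0.38, -0.32 and -0.32. For rRNA that margin was wider than the difference itself, -0.46, so it does not show that the difference held. It was -0.16 without vehicle replicate 5. With the block or limma-voom and all libraries, the sums could not move, as they came from the same CPM. Fold changes crossed 0 for MT-TI without vehicle replicate 5 (0.0179, lowest -0.62 over the single libraries left out) and with the block too (0.0044). They did for MT-RNR1 (0.0584) and MT-RNR2 (0.0137) when both replicate 2 libraries and vehicle replicate 5 were left out. UQCRB crossed 0 without vehicle replicate 5 (0.0176, lowest -0.40), without replicate 5 of both groups (0.0762) and with vehicle replicate 5 left out and the block (0.0717), as did COX6C (0.0486, lowest -0.43, then 0.0922 and 0.0988). The cause was not tested. Depth limits the 10 untested tRNAs, at 7 to 82 counts over all libraries.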
